A study of Mus musculus with 4 samples.

Results

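The genes described here are 59 genes of mitosis, chosen by function: the cyclins and kinases that drive entry into mitosis, the centromere, kinetochore and spindle machinery that separates the chromosomes, the factors that divide the cell, and the condensins that compact the chromosomes. All 59 symbols were found among the 24346 gene rows of the deposited table. All 59 were also among the 11595 rows expressed highly enough to be tested, those reaching 1 FPKM (fragments per kilobase of transcript, scaled to library size) in 2 or more libraries. RNA had been sequenced from spleen regulatory T (Treg) cells, the Foxp3-expressing CD4+ T cells that restrain immune responses. The 2 dKO libraries came from cells labelled Tcf1-/-Lef1-/-, whose mice carried floxed alleles of both factor genes. The 2 WT libraries came from cells with wild-type alleles of both. Mice of both groups were male, 16 weeks old and Foxp3-Cre+, and all cells were sorted as CD4+, Thy1.2+ and Foxp3-Cre-GFP+. Because Foxp3 drives the Cre, deletion is limited to cells that have switched Foxp3 on. The question was how loss of Tcf1 and Lef1, related DNA-binding proteins of T cells and the Wnt pathway, alters the Treg transcriptome.

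Mitotic genes are transcribed in a burst late in the cell cycle and are nearly silent in resting cells, so in a bulk sample their RNA is commonly read as a sign of dividing cells. Cyclin B with Cdk1 starts mitosis. Kinetochores assembled on centromeres then attach to spindle microtubules, the spindle checkpoint holds back anaphase until all are attached, and Cdc20 with the anaphase-promoting complex releases it. Treg cells in the spleen include resting cells and a cycling, activated fraction. In bulk RNA a larger share of dividing cells and more mitotic RNA per cell cannot be told apart.

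Library depth, estimated from the FPKM that 1 read is worth, was 18800000 to 24700000 reads. Both targeted genes had lower values in each dKO library than in each WT library, without passing the test over all rows. Lef1 had 41.3 and 36.0 FPKM in dKO_0 and dKO_1, against 59.9 and 66.5 FPKM in WT_0 and WT_1 (limma adjusted p = 0.113, and 0.038 with small RNA rows left out). The authors' deposited table lists Lef1 as lower (q = 0.00365). Tcf7, the gene of Tcf1, had 247 and 249.6 FPKM in dKO, against 345 and 309 FPKM in WT (limma adjusted p = 0.158). These are values per gene, so loss of the floxed part alone cannot be read from them. Foxp3 had 133 and 144 FPKM in dKO, against 113 and 121 FPKM in WT, and 4 Treg markers summed to 474 and 492 FPKM in dKO, against 412 and 440 FPKM in WT. The libraries also differed in RNA of cells other than Treg cells. The summed FPKM of 12 erythroid markers was 87.7 in dKO_0 and 228 in dKO_1, against 315 in WT_0 and 31.5 in WT_1. That of 8 neutrophil markers was 76.4 in dKO_0 and 123 in dKO_1, against 394 in WT_0 and 96.1 in WT_1. WT_0 was highest for both sums, and WT_1 was lowest for the erythroid one. Other lists ran differently. Monocyte and macrophage markers summed to 383 and 360 FPKM in dKO_0 and dKO_1, against 390 in WT_0 and 490 in WT_1. Natural killer (NK) cell markers summed to 39.5 and 49.9 FPKM in dKO_0 and dKO_1, against 54.1 in WT_0 and 68.8 in WT_1. WT_1 was thus the highest library for the monocyte and NK cell sums.

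Most mitotic genes had higher mean values in the dKO libraries, and no single one passed the test. Of the 59 genes, 58 had a higher mean in dKO than in WT, against 52.8% of all rows tested. Both dKO libraries stood above both WT libraries in 57, an arrangement found in 27.8% of all rows tested. The median fold (mean FPKM in dKO over mean FPKM in WT) was 1.75, with quartiles of 1.6 and 1.89, and 52 genes lay between 1.4 and 2. The median log2 difference, on the log2(FPKM + 1) scale, was 0.69, against 0.01 over all rows tested. The lone gene that was lower in dKO was Smc4, a condensin subunit. It was also the one mitotic gene with both dKO libraries below both WT libraries, as in 23.4% of all rows.

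None of the 59 passed the test over all rows. By limma with Benjamini-Hochberg adjustment, 0 were called at an adjusted p under 0.05, where 0.181% of all rows were called as higher in dKO, and the smallest adjusted p among the 59 was 0.113, for Smc2. At an unadjusted p under 0.05, 50 were higher and 1 was lower, against 9.64% of all rows higher and 7.08% lower. Without dKO_1 the count of 50 was 32. With small RNA rows left out of the fit, 2 were called as higher, Mad2l1 (adjusted p = 0.0452) and Smc2 (adjusted p = 0.0497), against 1.08% of the rows. In the authors' deposited table, 37 had a q under 0.05, and 36 of these were listed as higher in dKO, against 1.56% of the rows tested here. None was listed as lower, against 1.21% of the rows. With 2 libraries against 2, the smallest two-sided exact permutation p for a single gene is 0.333, so no single gene could pass that test.

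**Figure D1:**
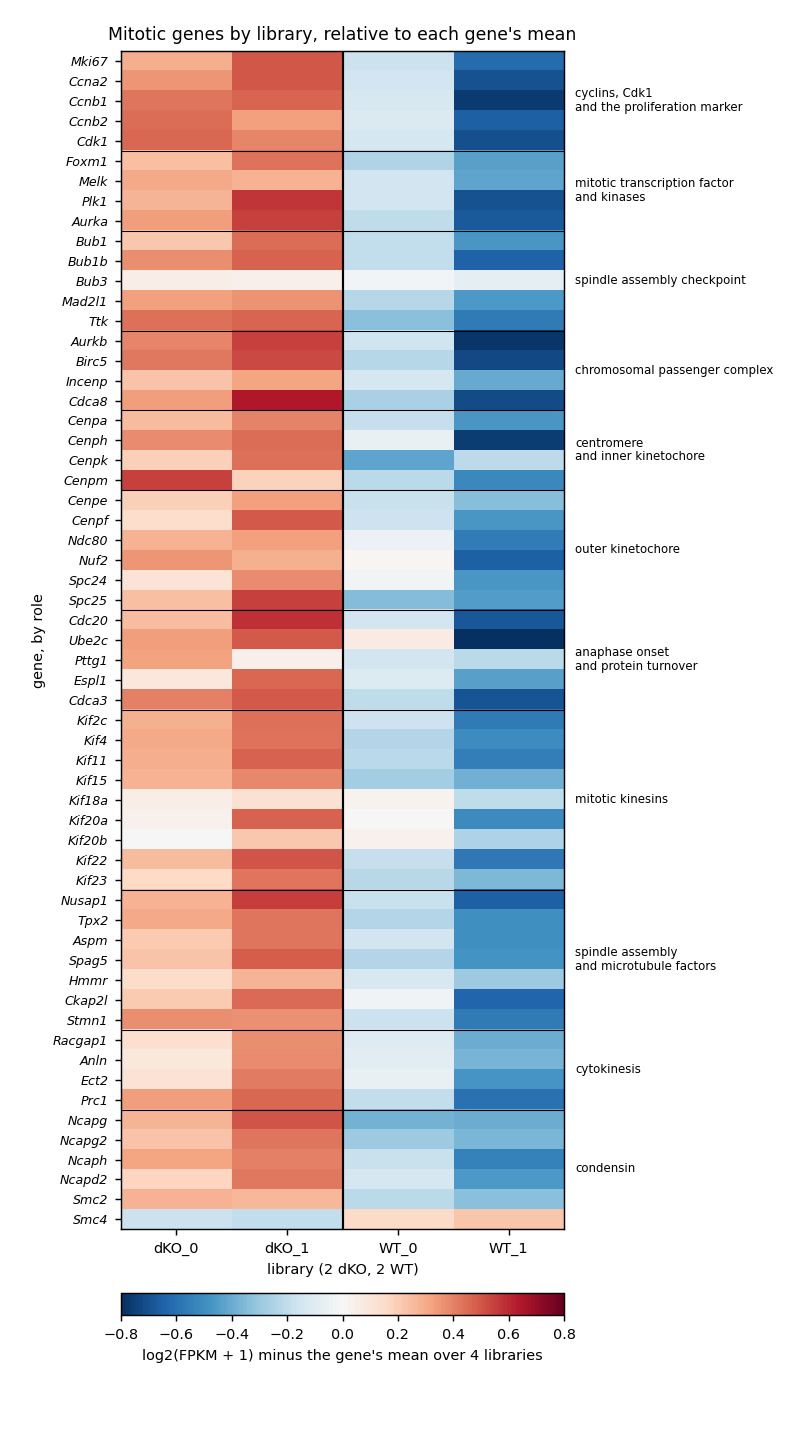
Heat map of the 59 mitotic genes (rows, grouped by role) in the 4 libraries (columns, the 2 dKO libraries left of the line and the 2 WT libraries right of it). Colour gives log2(FPKM + 1) minus the gene's mean over the 4 libraries. WT_1 is the lowest library for 57 of the 59 genes, and Smc4 runs opposite to the rest.

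The WT libraries were themselves apart in these genes. WT_1 was the lowest library for 57 of the 59, against 30.7% of all rows tested, and the order WT_1, WT_0, dKO_0, dKO_1 from low to high was found for 47, against 8.05% of rows. WT_0 was a median 1.36 times WT_1. The mean of the dKO libraries was a median 1.53 times WT_0 and 2.05 times WT_1, so the size of the difference depended on which WT library it was set against. Smc4 was the single gene lower in dKO whichever library was left out. The median log2 difference was 0.54 without WT_1 and 0.84 without WT_0. For 12 genes the log2 difference was over 1.5 times smaller without WT_1. These were Ccnb1 at 0.58, Ccnb2 at 0.50, Cenph at 0.47, Ndc80 at 0.35, Nuf2 at 0.31, Spc24 at 0.27, Ube2c at 0.34, Kif18a at 0.06, Kif20a at 0.26, Kif20b at 0.07, Ckap2l at 0.36 and Ect2 at 0.33. Nuf2, Ube2c, Kif18a and Kif20b were likewise over 1.5 times larger without WT_0. Without dKO_0, Pttg1 was at 0.22, and without dKO_1, Espl1, Kif20a and Kif20b were at 0.35, 0.29 and 0.11. None of the 59 changed sign when any one library was left out. The number called by limma also depended on which library was left out, among the 59 and over all rows, and is not compared here.

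The difference between the groups was larger than the gap between the WT libraries for 55 genes, and more than 2 times that gap for 27. The matching shares of all rows are not given here, so these counts only describe the 59 genes. The median size of the WT gap was 0.33 on the log2 scale, against 0.12 over all rows tested. Ncapg had the smallest WT gap, with 6.19 and 7.44 FPKM in dKO, against 3.58 and 3.53 FPKM in WT. Ube2c had the widest, with 46.5 and 52.1 FPKM in dKO, against 38.6 and 19.4 FPKM in WT. Its difference, like those of Nuf2, Kif18a and Kif20b, was smaller than its WT gap. The dKO libraries lay closer together, with dKO_1 a median 1.12 times dKO_0 and above it in 49 genes. Markers of other cells moved with some of these gaps. The summed FPKM of 14 B cell markers was 916 in dKO_0 and 1181 in dKO_1, against 918 in WT_0 and 835 in WT_1. All 13 tested B cell markers had a higher mean in dKO and 10 were lowest in WT_1, with a median log2 difference of 0.64, and of 0.11 without WT_1. Germinal centre B cell markers summed to 60.2 and 57.4 FPKM in dKO, against 66.6 and 59.3 FPKM in WT. The part of these cells, and of the erythroid, neutrophil, monocyte and NK cell RNA above, in the mitotic values was not tested.

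**Figure D2:**
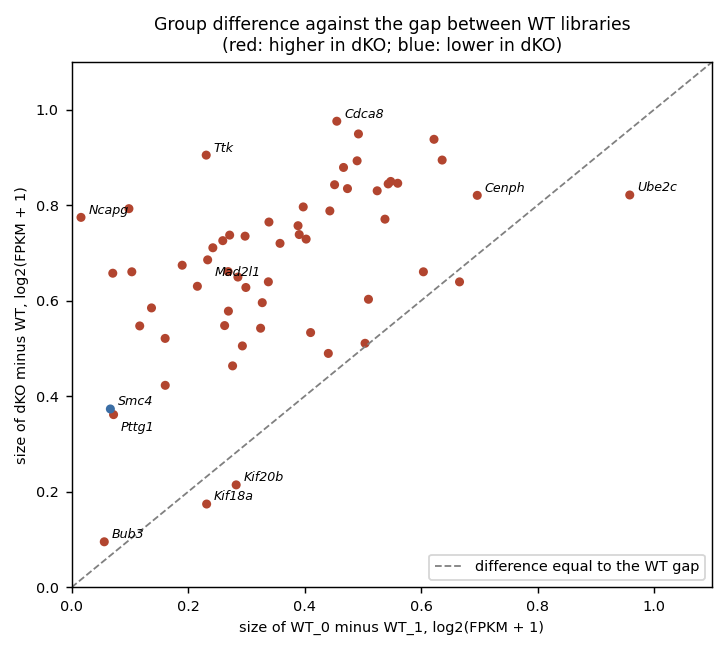
Size of the dKO minus WT difference (vertical axis) against the size of the gap between WT_0 and WT_1 (horizontal axis), both on the log2(FPKM + 1) scale, for the 59 genes. Points above the dashed line, 55 of them, have a difference larger than the WT gap; the single blue point is Smc4, which was lower in dKO.

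Many promoters of mitotic genes share a CHR element, bound by the MuvB core complex with either its repressive partners in resting cells or with B-Myb and FoxM1 in cycling ones, and CCAAT boxes, bound by NF-Y. RefSeq promoter windows (GRCm38.p6, 250 bases before to 50 after a transcription start) were matched for 50 of the 59 genes, in 55 windows. The CHR letters, TTTGAA or TTCGAA on either strand, were present in 74.5% of the 55 windows, against 19.2% of all 32851 windows in the table. CCAAT on either strand was present in 74.5%, against 37.4%, and both together in 63.6%, against 7.52%. The letters CTTTGA, the core recognised by Tcf and Lef proteins, were present on either strand in 16.4% of the windows, against 16% of all windows. CTTTGA and TTTGAA share letters where CTTTGAA occurs, as in 5 of the 55 windows. These matches describe letters in the windows and are not shown to be bound sites. The windows below belong to 5 genes with large differences that hold both kinds of letters, followed by Bub3, the gene of smallest difference. Capitals mark the CHR and CCAAT letters on either strand.
Cdca8, chr4:124936868-124937167, minus strand: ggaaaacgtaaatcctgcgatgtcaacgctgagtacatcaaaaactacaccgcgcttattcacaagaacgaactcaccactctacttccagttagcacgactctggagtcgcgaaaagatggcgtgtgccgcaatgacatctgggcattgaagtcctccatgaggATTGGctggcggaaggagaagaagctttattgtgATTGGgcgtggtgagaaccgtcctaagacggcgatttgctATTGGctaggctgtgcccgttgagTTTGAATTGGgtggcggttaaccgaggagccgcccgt
Ttk, chr9:83834439-83834738, plus strand: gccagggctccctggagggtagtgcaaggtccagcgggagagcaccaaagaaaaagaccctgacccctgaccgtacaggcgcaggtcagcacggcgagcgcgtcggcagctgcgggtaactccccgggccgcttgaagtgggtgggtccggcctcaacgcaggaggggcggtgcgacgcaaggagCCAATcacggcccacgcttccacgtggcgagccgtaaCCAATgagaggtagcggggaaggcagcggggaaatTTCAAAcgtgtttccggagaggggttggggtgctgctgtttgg
Cdca3, chr6:124829926-124830225, plus strand: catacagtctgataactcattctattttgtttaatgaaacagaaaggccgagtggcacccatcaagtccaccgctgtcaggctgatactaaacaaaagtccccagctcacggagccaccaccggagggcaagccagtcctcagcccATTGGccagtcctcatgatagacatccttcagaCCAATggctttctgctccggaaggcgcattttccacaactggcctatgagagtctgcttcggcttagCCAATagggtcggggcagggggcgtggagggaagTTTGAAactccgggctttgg
Aurka, chr2:172370521-172370820, minus strand: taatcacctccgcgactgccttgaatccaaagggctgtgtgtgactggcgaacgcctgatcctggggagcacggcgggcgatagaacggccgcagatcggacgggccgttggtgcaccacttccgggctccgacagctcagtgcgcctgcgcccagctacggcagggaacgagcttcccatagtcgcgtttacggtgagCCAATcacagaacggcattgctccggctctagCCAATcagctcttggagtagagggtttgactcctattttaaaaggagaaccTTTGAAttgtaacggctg
Plk1, chr7:122159185-122159484, plus strand: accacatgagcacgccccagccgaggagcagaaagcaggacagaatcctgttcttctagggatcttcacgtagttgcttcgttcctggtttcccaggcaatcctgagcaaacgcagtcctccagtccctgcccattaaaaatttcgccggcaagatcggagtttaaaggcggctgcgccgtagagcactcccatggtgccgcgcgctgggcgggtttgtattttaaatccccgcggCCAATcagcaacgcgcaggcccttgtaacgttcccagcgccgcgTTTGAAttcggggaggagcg
Bub3, chr7:131560120-131560419, plus strand: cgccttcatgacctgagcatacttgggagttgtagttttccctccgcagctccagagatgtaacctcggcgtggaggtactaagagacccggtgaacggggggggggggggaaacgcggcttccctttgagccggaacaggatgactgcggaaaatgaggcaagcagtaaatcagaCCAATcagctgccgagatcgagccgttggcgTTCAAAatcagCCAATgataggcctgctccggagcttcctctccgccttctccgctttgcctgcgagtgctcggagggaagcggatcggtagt

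In the first 5 windows the CHR letters lay 8 to 33 bases after the annotated start, with 1 to 4 CCAAT boxes, most of them upstream of it. Bub3 also held both, with the CHR letters starting 43 bases before the start, so holding both kinds of letters did not separate it from the other genes shown. Across the 50 matched genes, the median log2 difference was 0.75 for the 32 with both kinds of letters and 0.65 for the 18 without both, and the ranges overlapped (0.10 to 0.98 and 0.17 to 0.95).

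Cyclins, their kinase and the proliferation marker were all higher in dKO, with a median log2 difference of 0.85 over 5 genes. Mki67 (chromosome 7, 135689784 to 135716361, minus strand, GRCm38) encodes Ki-67, the coat protein of mitotic chromosomes used as a marker of cycling cells. It had 25.4 and 29.4 FPKM in dKO_0 and dKO_1, against 18.1 and 13.1 FPKM in WT_0 and WT_1 (log2 difference 0.79, SE 0.176, limma adjusted p = 0.171). Ccnb1 and Ccnb2 encode the B-type cyclins that activate Cdk1. Ccnb1 had 12.9 and 13.2 FPKM in dKO, against 8.41 and 5.05 FPKM in WT, and Ccnb2 had 26.9 and 24.7 FPKM in dKO, against 17.9 and 12.0 FPKM in WT. Ccna2, the cyclin of S phase and early mitosis, had 19.4 and 21.6 FPKM in dKO, against 13.4 and 8.84 FPKM in WT. Cdk1 itself had 9.1 and 8.63 FPKM in dKO, against 5.66 and 3.52 FPKM in WT. In each of these genes both dKO libraries stood above both WT libraries, as in 27.8% of all rows tested. WT_1 was lowest in each, as in 30.7% of all rows.

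Foxm1, the transcription factor that switches on late cell cycle genes, had 6.69 and 7.79 FPKM in dKO, against 4.5 and 3.82 FPKM in WT (log2 difference 0.67). Plk1, the Polo kinase of mitotic entry and centrosome maturation, had 13.0 and 16.3 FPKM in dKO, against 9.45 and 6.17 FPKM in WT (log2 difference 0.84, SE 0.222, limma adjusted p = 0.207). Aurka, the kinase of spindle poles, had 10.5 and 12.3 FPKM in dKO, against 6.91 and 4.72 FPKM in WT (log2 difference 0.88, SE 0.188, limma adjusted p = 0.165). Melk, a kinase of proliferating cells, was at 5.23 and 5.11 FPKM in dKO, against 3.54 and 2.77 FPKM in WT. In all 4 genes both dKO libraries stood above both WT libraries, as in 27.8% of all rows tested.

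All 5 spindle checkpoint genes had higher means in dKO, with Bub3 close to level. Ttk, the Mps1 kinase at the head of the checkpoint, had the largest fold of all 59 genes at 2.71, with 2.75 and 2.82 FPKM in dKO, against 1.19 and 0.865 FPKM in WT (log2 difference 0.90, SE 0.138, limma adjusted p = 0.121). Its lowest library held about 58 estimated reads, the fewest of the 59 genes in any library, with Cenpk close to it at 59. Mad2l1, the checkpoint protein that inhibits Cdc20, had 18.7 and 19.1 FPKM in dKO, against 12.4 and 10.4 FPKM in WT (log2 difference 0.69, SE 0.1, limma adjusted p = 0.118). Bub1 and Bub1b, kinetochore-bound checkpoint proteins, were higher too, at log2 differences of 0.66 and 0.84. Bub3, which anchors both of them at kinetochores, was near level, at 58.5 and 58.0 FPKM in dKO, against 55.5 and 53.4 FPKM in WT (log2 difference 0.10, SE 0.0551, limma adjusted p = 0.45). Its fold was 1.07, and with Smc4 and Stmn1 it was one of the 3 genes that averaged over 50 FPKM.

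The chromosomal passenger complex, which corrects faulty spindle attachments and later guides cytokinesis, had the highest median log2 difference of the 11 roles, 0.94 over 4 genes; differences between roles were not tested. Cdca8, its Borealin subunit, had 18.1 and 22.6 FPKM in dKO, against 11.6 and 8.22 FPKM in WT (log2 difference 0.98, SE 0.197, limma adjusted p = 0.158), the largest log2 difference of the 59. Birc5, the Survivin subunit (chromosome 11, 117849251 to 117855743, plus strand), had 37.3 and 40.3 FPKM in dKO, against 23.5 and 16.4 FPKM in WT (log2 difference 0.95, SE 0.18, limma adjusted p = 0.152). Aurkb, the kinase of the complex, had 15.3 and 17.2 FPKM in dKO, against 10.2 and 6.25 FPKM in WT. Incenp, the scaffold that activates Aurkb, differed less, with 26.2 and 27.9 FPKM in dKO, against 20.0 and 16.5 FPKM in WT (log2 difference 0.55, SE 0.11, limma adjusted p = 0.158). The ratio of Incenp to Aurkb FPKM was 1.71 and 1.62 in dKO, against 1.97 and 2.64 in WT.

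Among centromere genes, Cenpa, the histone H3 variant that marks centromeres, was the most abundant. It had 49.1 and 54.2 FPKM in dKO, against 36.0 and 29.4 FPKM in WT (log2 difference 0.65, SE 0.12, limma adjusted p = 0.148). Cenph, Cenpk and Cenpm belong to the inner kinetochore network that sits on Cenpa chromatin and were low, with log2 differences of 0.82, 0.63 and 0.74. Cenph had 6.15 and 6.5 FPKM in dKO, against 4.28 and 2.26 FPKM in WT, and Cenpm had 7.17 and 5.35 FPKM in dKO, against 3.8 and 2.9 FPKM in WT. Cenpk had 4.21 and 5.19 FPKM in dKO, against 2.4 and 2.95 FPKM in WT, the one gene whose order was WT_0, WT_1, dKO_0, dKO_1. These 3 genes and Ttk had under 100 estimated reads in their lowest library, where counting error is widest.

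At the outer kinetochore, where microtubules attach, all 6 genes were higher in dKO, with a median log2 difference of 0.62. The 4 subunits of the Ndc80 complex, the main microtubule coupler, differed by 0.49 to 0.79. Spc25 had 6.03 and 7.69 FPKM in dKO, against 3.67 and 3.36 FPKM in WT (log2 difference 0.79, SE 0.137, limma adjusted p = 0.132). Its partner Spc24 had 11.3 and 13.9 FPKM in dKO, against 10.2 and 7.28 FPKM in WT (log2 difference 0.49, SE 0.188, limma adjusted p = 0.308). Ndc80 had 8.15 and 8.46 FPKM in dKO, against 6.31 and 4.14 FPKM in WT, and Nuf2 had 6.93 and 6.57 FPKM in dKO, against 5.26 and 2.95 FPKM in WT. Cenpe, a kinetochore motor, and Cenpf, a large kinetochore protein, had log2 differences of 0.52 and 0.63. WT_1 was lowest for each of the 6, as for 30.7% of all rows tested.

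Genes of anaphase onset showed a wide spread, from 0.36 to 0.89 on the log2 scale. Cdca3, which promotes turnover of the mitotic inhibitor Wee1, had 15.7 and 16.7 FPKM in dKO, against 9.97 and 6.81 FPKM in WT (log2 difference 0.89, SE 0.181, limma adjusted p = 0.158). Cdc20, the activator of the anaphase-promoting complex, had 22.4 and 28.5 FPKM in dKO, against 16.7 and 11.3 FPKM in WT. The ubiquitin-conjugating enzyme of that complex is encoded by Ube2c, whose values are given above (log2 difference 0.82, SE 0.335, limma adjusted p = 0.322). Espl1, the separase that cuts cohesin, had 3.29 and 4.57 FPKM in dKO, against 2.76 and 2.0 FPKM in WT. Its inhibitor securin, encoded by Pttg1, had 58.8 and 48.1 FPKM in dKO, against 42.2 and 40.1 FPKM in WT (log2 difference 0.36, SE 0.113, limma adjusted p = 0.249), a fold of 1.3.

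The 9 mitotic kinesins, motors that build the spindle and move chromosomes, were higher in dKO with a median log2 difference of 0.66. Kif11, the motor that pushes spindle poles apart, had 11.8 and 13.5 FPKM in dKO, against 7.99 and 6.11 FPKM in WT (log2 difference 0.76, SE 0.147, limma adjusted p = 0.155). Kif22, a chromosome-arm motor, had 13.7 and 16.5 FPKM in dKO, against 9.84 and 7.28 FPKM in WT (log2 difference 0.76, SE 0.17, limma adjusted p = 0.173). The remaining members Kif2c, Kif4, Kif15 and Kif23 had log2 differences of 0.58 to 0.74. Kif18a and Kif20b stood near the level of WT_0. Kif18a, which dampens chromosome oscillation, had 2.01 and 2.17 FPKM in dKO, against 1.97 and 1.53 FPKM in WT, a fold of 1.2. Kif20b, a motor of late cytokinesis, had 4.26 and 5.09 FPKM in dKO, against 4.38 and 3.42 FPKM in WT, and was the one gene higher on average in dKO in which the groups overlapped. Kif20a, which acts at the central spindle, had 6.62 and 9.32 FPKM in dKO, against 6.41 and 4.22 FPKM in WT.

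**Figure D3:**
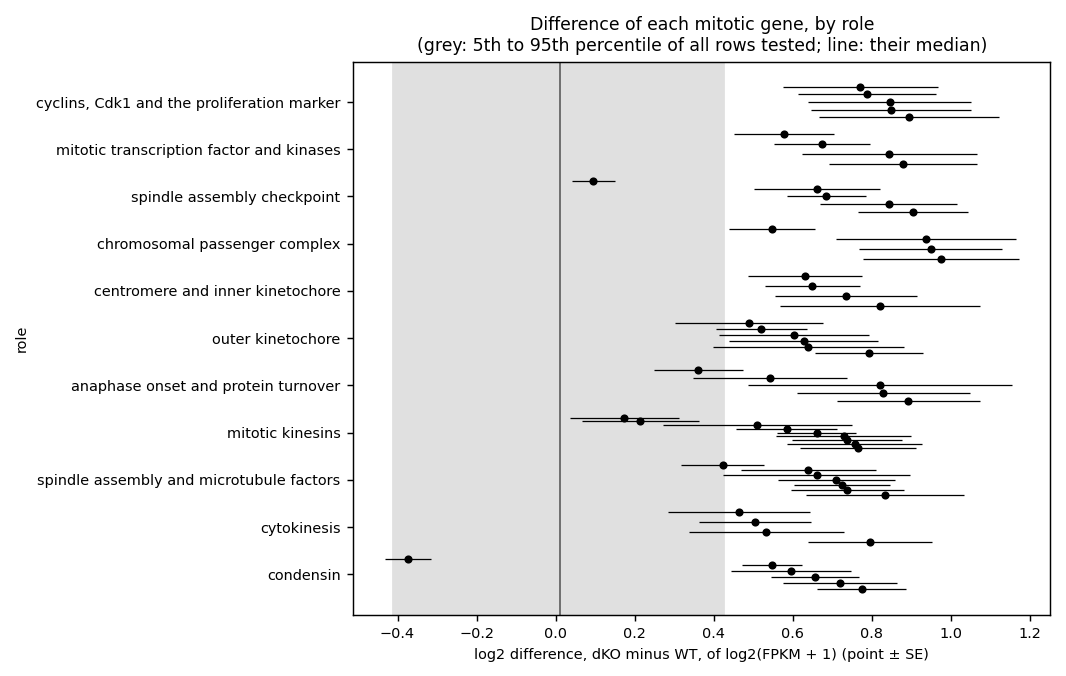
Log2 difference (dKO minus WT, log2(FPKM + 1) scale, point with SE from limma) of each of the 59 genes, in rows by role. The grey band runs from the 5th to the 95th percentile of all rows tested (-0.41 to 0.43), and 53 genes lie above it; Bub3, Kif18a, Kif20b, Pttg1 and Hmmr lie inside it with Smc4.

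Spindle assembly and microtubule factors were all higher in dKO, 7 of 7, with a median log2 difference of 0.71. Stmn1, the tubulin-binding protein stathmin, was the most abundant of them, with 138 and 138 FPKM in dKO, against 94.6 and 71.9 FPKM in WT (log2 difference 0.74, SE 0.143, limma adjusted p = 0.155). A gene on the same strand, Gm23634, overlaps its exons. Nusap1, a microtubule bundler, had 9.54 and 11.8 FPKM in dKO, against 6.66 and 4.52 FPKM in WT (log2 difference 0.83, SE 0.2, limma adjusted p = 0.185). Tpx2, the activator of Aurka on the spindle, had 9.47 and 10.4 FPKM in dKO, against 6.24 and 5.04 FPKM in WT. Aspm and Spag5, which focus and hold spindle poles, had log2 differences of 0.64 and 0.71, and Ckap2l, a spindle protein, of 0.66. Hmmr, a spindle pole adaptor, had the smallest of the role, 0.42.

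All 4 cytokinesis genes were higher in dKO, with a median log2 difference of 0.52, the lowest median of the 11 roles. Prc1, the crosslinker of the central spindle, had 12.6 and 13.9 FPKM in dKO, against 8.42 and 6.15 FPKM in WT (log2 difference 0.80, SE 0.157, limma adjusted p = 0.158). Racgap1, of the centralspindlin complex, had 18.3 and 21.9 FPKM in dKO, against 15.4 and 12.4 FPKM in WT (log2 difference 0.51, SE 0.142, limma adjusted p = 0.223). Ect2, the exchange factor that activates RhoA at the cleavage site, had 3.77 and 4.87 FPKM in dKO, against 3.22 and 2.17 FPKM in WT. Anln, the scaffold of the contractile ring, was the least abundant of the 4, at 1.78 and 2.41 FPKM in dKO, against 1.46 and 1.03 FPKM in WT. Kif23, the partner of Racgap1 in centralspindlin, which is counted with the kinesins, had a log2 difference of 0.58.

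Condensins, the ring complexes that compact mitotic chromosomes, held both the gene of smallest adjusted p and the gene that ran the other way. Smc2 and Smc4 form the core shared by condensin I and condensin II. Smc2 (chromosome 4, 52439243 to 52488260, plus strand) had 13.9 and 13.7 FPKM in dKO, against 9.55 and 8.73 FPKM in WT (log2 difference 0.55, SE 0.0758, limma adjusted p = 0.113). Smc4 (chromosome 3, 69004738 to 69034623, plus strand) had 147 and 144 FPKM in dKO, against 185 and 193 FPKM in WT (log2 difference -0.37, SE 0.0588, limma adjusted p = 0.123; authors' deposited table q = 0.222). Its sign was kept in all 12 alternative settings, with log2 differences of -0.44 to -0.34. Smc4 was the most abundant of the 59 genes, and its FPKM was 10.6 and 10.5 times that of Smc2 in dKO, against 19.3 and 22.2 times in WT. The condensin I subunits Ncapg, Ncaph and Ncapd2 had log2 differences of 0.77, 0.72 and 0.60, and the condensin II subunit Ncapg2 of 0.66. Ncapd2 had 24.7 and 29.6 FPKM in dKO, against 19.8 and 15.6 FPKM in WT.

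Most other genes of the pathway also had higher means in dKO, with smaller medians. Of 32 further kinetochore and centromere genes tested, 29 were higher in dKO and 3 lower, with a median log2 difference of 0.36, and 29 of 31 further spindle, kinesin and cytokinesis genes were higher, with a median of 0.42. The third list, mitotic entry, exit and cohesion, had 32 of 34 higher and a median of 0.32, where 52.8% of all rows tested were higher. Without WT_1 these medians were 0.22, 0.36 and 0.21. With limma, 0 genes of these lists were called, where 0.181% of all rows were called as higher in dKO. At an unadjusted p under 0.05 by limma, 14, 18 and 16 were higher and 2, 0 and 0 lower, against 9.64% and 7.08% of all rows. The authors' deposited table listed 4, 9 and 7 genes of these lists as higher and 0 as lower, against 1.56% and 1.21% of the rows tested here. Fam64a, a mitotic regulator also called Pimreg, had 7.1 and 8.04 FPKM in dKO, against 2.66 and 2.91 FPKM in WT (log2 difference 1.18, SE 0.104, limma adjusted p = 0.0562). Lmnb1, the nuclear lamin B1 gene, had 73.5 and 76.6 FPKM in dKO, against 49.4 and 48.8 FPKM in WT (log2 difference 0.60, SE 0.0553, limma adjusted p = 0.0582). Tacc3, which stabilises spindle fibres, had 15.3 and 16.2 FPKM in dKO, against 10.1 and 9.09 FPKM in WT (log2 difference 0.66, limma adjusted p = 0.0942). WT_0 minus WT_1 was -0.09, 0.02 and 0.14 on the log2 scale for Fam64a, Lmnb1 and Tacc3. With small RNA rows left out, 0, 2 and 2 genes of the lists were called as higher, against 1.08% of the rows. These 3 were among them (limma adjusted p = 0.0192, 0.0192 and 0.038). Sgol1, the shugoshin that protects centromeric cohesion, had 2.4 and 2.86 FPKM in dKO, against 1.0 and 1.12 FPKM in WT. Esco2, a cohesin acetyltransferase, had 4.19 and 3.96 FPKM in dKO, against 2.06 and 1.87 FPKM in WT.

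The nearest cell cycle lists differed by different amounts. DNA replication and nucleotide synthesis genes were higher in dKO in 44 of 44, with a median log2 difference of 0.46 (0.30 without WT_1) and 0 called. Over all rows tested, 0.181% were called as higher in dKO. Gmnn, the inhibitor of replication licensing, had 28.4 and 29.5 FPKM in dKO, against 18.6 and 14.9 FPKM in WT (limma adjusted p = 0.122). Mcm3, of the replicative helicase, had 43.6 and 47.0 FPKM in dKO, against 29.9 and 24.6 FPKM in WT (limma adjusted p = 0.122). G1 cyclins, their kinases and inhibitors were higher in 13 of 20, against 52.8% of all rows tested, with 0 called. Their median was 0.09 (0.09 without WT_1 and 0.16 without WT_0). Within that list, Cdkn2a, a CDK inhibitor gene, had 4.56 and 3.64 FPKM in dKO, against 1.17 and 1.67 FPKM in WT (limma adjusted p = 0.122), and Ccne1, cyclin E1, had 8.91 and 9.44 FPKM in dKO, against 5.86 and 4.83 FPKM in WT (limma adjusted p = 0.125). Of 12 tested genes of the MuvB, Myb and pocket protein complexes that control mitotic promoters, 6 were higher and 6 lower, with a median of 0.05 (-0.01 without WT_1) and 0 called. Mybl2, the gene of B-Myb, had 5.17 and 5.9 FPKM in dKO, against 4.33 and 2.81 FPKM in WT. Rbl1, the pocket protein p107, had 20.5 and 21.6 FPKM in dKO, against 17.5 and 17.2 FPKM in WT (limma adjusted p = 0.189). These differences between lists were not tested.

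**Figure D4:**
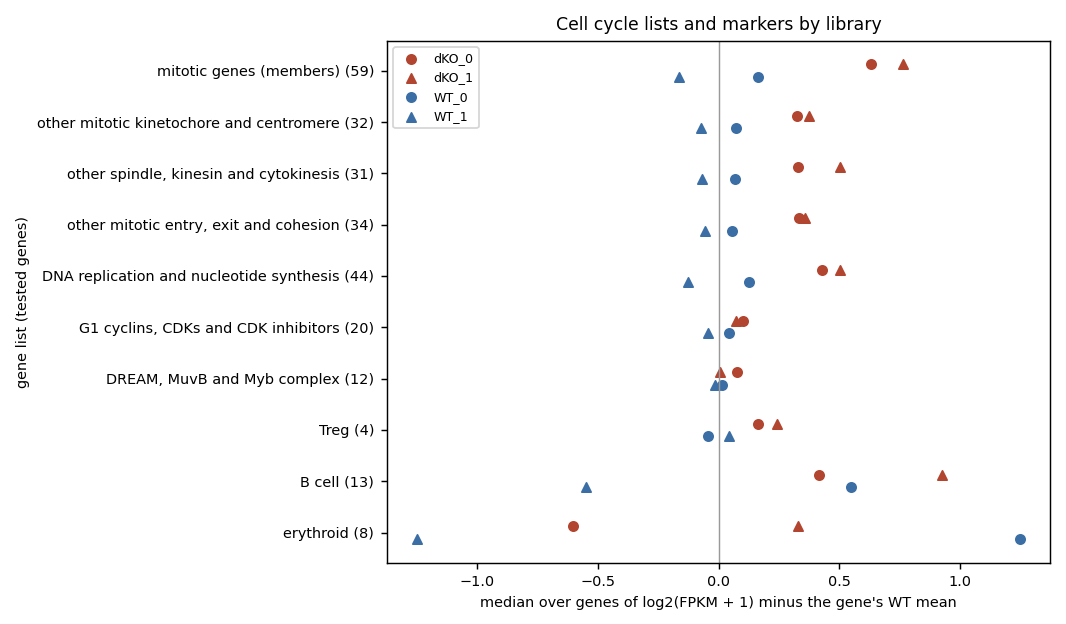
Median over the tested genes of each list (rows, number of genes in brackets) of log2(FPKM + 1) minus the gene's WT mean, for each library (red, dKO; blue, WT; circles and triangles are the libraries numbered 0 and 1). Mitotic genes sit at 0.63 and 0.77 in dKO_0 and dKO_1, against 0.16 and -0.16 in WT_0 and WT_1, while B cell and erythroid markers spread more between WT_0 and WT_1.

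Some values carry limits of counting. By the GENCODE vM21 annotation, exons of Ccna2, Plk1, Cdc20, Ube2c, Kif4, Kif20a, Nusap1, Ckap2l, Prc1 and Ncapg overlap a gene on the opposite strand, and those of Foxm1 and Stmn1 overlap one on the same strand. The strand setting of the sequencing is not given in the sources used here, so reads of such pairs cannot be told apart. Annotated copies also exist for Ccnb1, Ccnb2, Kif4 and Kif22.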

How the data were processed

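Treg cells were sorted from spleen and total RNA was column-extracted, per the labels' protocols. FastQC, TopHat2 2.1.0, Cuffdiff 2.2.1 and mm10 are named in the submitters' processing notes. The authors deposited FPKM per library. They also deposited log2 fold changes with p-values and q-values of their own comparison. The sources used here do not give the annotation or the strand setting. Columns numbered 0 and 1 name the group but not the titled replicate, so libraries are called dKO_0, dKO_1, WT_0 and WT_1. Whether the libraries of a group came from different mice is not stated, so the p-values rest on a library-to-library spread that could be technical.

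After a log2(FPKM + 1) transformation, groups were compared by limma version 3.58.1 under R 4.3.3 (two-sided, unpaired, mean-variance trend) over all 11595 rows with at least 1 FPKM in at least 2 libraries, and adjusted by Benjamini-Hochberg over all of them. Differences are dKO minus WT on that scale, which understates changes of low genes. A row is called at an adjusted p under 0.05. On simulated data for this comparison (11595 genes), the calls took in 58% of those altered by a log2 of 1 and 95% of those altered by 3. Depth was estimated from the lowest FPKM steps of genes with a single GENCODE vM21 transcript. Reads per gene assume the longest transcript, and depth and counting limits cover counting error only. Small RNA rows were recognised by symbol. Promoters are RefSeq windows.

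The genes, lists and tests were chosen with earlier results of these data known. Named genes are, per role, the 2 of highest mean FPKM and the one of largest difference, the extremes of the WT gap, and up to 3 per pathway list; further members were named after their values were seen, to account for all roles. Some genes under the rule are not reported here.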

Additional observations from a re-analysis of the deposited data

How the results depend on the processing

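The direction of the group was stable over the 12 alternatives to the fit: 58 genes, or 57 of 58 with an FPKM of at least 1 required in all libraries, were higher in dKO, and the median log2 difference was 0.54 to 0.84. The count called was not. Of the 59 genes, 0 were called in 9 settings, 2 with small RNA rows left out and 0 to 19 with 1 library left out. Over all rows the count of 40 became 16 with no filter on low values, 132 with an FPKM of at least 1 in all libraries, 179 with small RNA rows left out, and 2 to 217 with 1 library left out. Leaving out a library leaves its group with 1 library, assumed to vary like the other group. Smc4 was the one gene of the 59 lower in dKO in each of the 12. No paired analysis was possible because the columns carry numbers that cannot be tied to the titled replicates. The 2 libraries per group, and low read numbers for Ttk, Cenph, Cenpk and Cenpm, limit precision.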
